A study of Mus musculus with 4 samples.

Results

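The genes described here encode the primary (azurophil) granule proteins of neutrophil precursors: myeloperoxidase (Mpo), the serine proteases neutrophil elastase (Elane), proteinase 3 (Prtn3) and cathepsin G (Ctsg), their activating protease cathepsin C (Ctsc), lysozyme (Lyz2) and the progenitor membrane protein Ms4a3. Members were given as a list of symbols, and every non-control probe whose RefSeq transcript maps to one of them was taken. This gave 7 genes, each read by 1 probe in 1 spot, of 20886 genes with a symbol on the array and 13031 genes compared. All 7 were well above background, by the scanner software's own call, on all 4 arrays, so none depended on a filter, and none was saturated or marked as an outlier.

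RNA came from LSK cells, named for their Lineage-negative, Sca-1-positive, c-Kit-positive surface, the mouse marrow fraction with the stem cells and multipotent progenitors, sorted by flow cytometry. Wild-type native and Sf3b1+/- native cells were taken from C57BL/6 mice at 20 weeks of age. Wild-type transplanted and Sf3b1+/- transplanted cells were CD45.2+ donor cells recovered 9 months after lethally irradiated CD45.1+ hosts had received total marrow of that genotype. Sf3b1 encodes a core subunit of the U2 splicing particle; Sf3b1+/- mice carry 1 null allele in all their cells, whose construction the sources used here do not describe, and mice without Sf3b1 die before implantation. Each group was 1 single-colour array. The series design gives 4 mice for the native and 5 recipients for the transplanted collection, and the sources used here do not say how many were pooled for an array. Native and transplanted cells differ in transplantation, in irradiation of the host and in time, and these cannot be told apart.

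Primary granules form at the promyelocyte stage, and transcription of their genes begins earlier, in granulocyte and monocyte progenitors, under C/EBP, PU.1, Myb and Runx factors. Elane, Prtn3 and Ctsg are made as inactive proforms, from which cathepsin C removes an N-terminal dipeptide. Mpo needs heme and the chaperones calreticulin and calnexin to fold, and lysozyme is made by neutrophils and monocytes alike. Low transcription of these genes in multipotent cells is often called myeloid priming, and RNA from a sorted fraction cannot tell apart more priming per cell and more primed cells.

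The start-site windows of 4 members are shown because they give the neighbouring proteases Elane and Prtn3, whose values differed below, beside Ctsg and Lyz2, which were higher after transplantation. All 7 members matched an entry. Each RefSeq window (GRCm38.p6, used here for names and windows alone) runs from 250 bases before the start to 50 bases from the start on, 300 in all, and reads 5′ to 3′ on the gene's strand. Capitals mark matches, on either strand, to TTNNGNAA (C/EBP), GAGGAA (PU.1), AACGG (Myb) or TGNGGT (Runx).
Elane (chr10:79886062-79886361, plus strand): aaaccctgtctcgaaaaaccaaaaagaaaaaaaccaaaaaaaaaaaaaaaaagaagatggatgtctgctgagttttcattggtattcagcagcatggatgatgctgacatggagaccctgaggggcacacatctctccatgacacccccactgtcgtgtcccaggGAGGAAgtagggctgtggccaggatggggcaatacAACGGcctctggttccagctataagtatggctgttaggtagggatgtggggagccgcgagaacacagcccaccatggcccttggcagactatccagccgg
Prtn3 (chr10:79879417-79879716, plus strand): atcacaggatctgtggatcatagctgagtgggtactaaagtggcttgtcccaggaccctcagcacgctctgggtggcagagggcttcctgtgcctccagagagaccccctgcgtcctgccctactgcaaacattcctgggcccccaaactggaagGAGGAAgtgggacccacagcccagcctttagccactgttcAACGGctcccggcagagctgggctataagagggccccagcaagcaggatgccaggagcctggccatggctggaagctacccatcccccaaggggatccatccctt
Ctsg (chr14:56102525-56102824, minus strand): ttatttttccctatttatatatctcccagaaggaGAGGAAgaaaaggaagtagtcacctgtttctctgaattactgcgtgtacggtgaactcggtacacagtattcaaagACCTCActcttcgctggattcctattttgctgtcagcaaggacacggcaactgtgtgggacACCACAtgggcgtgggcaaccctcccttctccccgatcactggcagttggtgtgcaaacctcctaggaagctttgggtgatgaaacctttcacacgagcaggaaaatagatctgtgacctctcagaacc
Lyz2 (chr10:117282223-117282522, minus strand): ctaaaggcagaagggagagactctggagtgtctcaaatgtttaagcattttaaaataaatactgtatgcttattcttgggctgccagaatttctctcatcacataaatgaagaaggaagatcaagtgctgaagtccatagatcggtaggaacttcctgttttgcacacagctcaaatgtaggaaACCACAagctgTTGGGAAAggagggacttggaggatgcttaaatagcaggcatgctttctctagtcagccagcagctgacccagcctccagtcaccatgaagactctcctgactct
Elane and Prtn3 shared 1 layout, GAGGAA starting at -85 and -95 and AACGG at -50 and -55 from the start. Ctsg had GAGGAA at -216 and a pair of Runx matches at -140 and -79, and Lyz2 had a Runx match at -66 followed by a C/EBP match at -55. GAGGAA was in 6 of 7 member windows against 28.3% of 32851 RefSeq windows of this length. AACGG was in 2 of 7 (17.4% of all windows), TGNGGT in 3 of 7 (45.8%) and TTNNGNAA in 2 of 7 (40.7%). The Mpo window held 2 GAGGAA matches and the Ctsc window 2 with 1 Runx match. In Ms4a3 the GAGGAA match at 35 ran up against a C/EBP match at 41, with another C/EBP match at -59. A match is a run of letters and not a measured binding site.

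The arrays differed in overall brightness. The 75th percentile of probes detected on all arrays was 1652 units for wild-type native, 1940.1 for Sf3b1+/- native, 1823 for wild-type transplanted and 2686 for Sf3b1+/- transplanted cells, with a median local background of 42.0 to 45.0. Values below are log2 signal relative to that percentile of the same array, written as scaled log2, unless called signal in units. Against the spike-in RNA the median of all compared genes was higher by 0.23 in Sf3b1+/- than wild-type native cells, 0.62 in Sf3b1+/- than wild-type transplanted cells, and 0.45 (wild type) and 0.83 (Sf3b1+/-) in transplanted than native cells, so differences here are relative to the bulk of each array. The scanner software's error was about 10% of the signal for every member, which makes the error of a difference between 2 arrays 0.20 to 0.21 on the log2 scale. Replicate spots of other probes varied by a median SD of 0.0673 to 0.0799. These errors cover the spot alone. With 1 array per group, no difference between 2 arrays has a replicate check or a p-value. The LSK markers Kit and Ly6a were well above background on all 4 arrays. Lineage markers were not all absent: the myeloid marker Itgam was well above background on all 4.

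Mpo (NM_010824), which makes hypochlorous acid from hydrogen peroxide and chloride, had the narrowest range of the members over the 4 arrays. Its signal was 142166 units in wild-type native, 135586 in Sf3b1+/- native, 139482 in wild-type transplanted and 197519.8 in Sf3b1+/- transplanted cells. Scaled to each array, Sf3b1+/- native cells stood at 81.2%, wild-type transplanted at 88.9% and Sf3b1+/- transplanted at 85.4% of wild-type native cells. From the highest to the lowest group was 0.30 on the log2 scale, and each step in the order of the groups was at most 0.17, within the error of a difference. The unscaled order differed, with Sf3b1+/- transplanted cells brightest.

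Elane (NM_015779) was within the spot error in 3 groups and a little higher in the last. It read 5344 units in wild-type native, 5785 in Sf3b1+/- native, 6105 in wild-type transplanted and 10770.0 in Sf3b1+/- transplanted cells. As scaled log2 these were 1.69, 1.58, 1.74 and 2.0, so only the step of 0.26 up to Sf3b1+/- transplanted cells was larger than the spot error.

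Prtn3 (NM_011178), the next gene on chromosome 10 and a target of autoantibodies in vasculitis, separated the settings. It read 4508 units in wild-type native and 4506 in Sf3b1+/- native cells, against 7807 in wild-type transplanted and 13697 in Sf3b1+/- transplanted cells. Both transplanted arrays lay above both native ones. Scaled log2 values were 1.45, 1.22, 2.10 and 2.35 in the same order.

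Ctsg (NM_007800), a chymotrypsin-like protease, was higher on both transplanted arrays. It read 41242 and 50894 units in wild-type and Sf3b1+/- native cells and 73752 and 111248 units in wild-type and Sf3b1+/- transplanted cells. Scaled log2 values were 4.64 and 4.71 in native and 5.34 and 5.37 in transplanted cells. The genotypes thus differed by 0.07 and 0.03, and the settings were 0.62 or more apart. The genotype differences, Sf3b1+/- minus wild type in native and transplanted cells, were 0.22 and 0.35 with quantile normalization and 0.30 and 0.65 with spike-in scaling.

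Ms4a3 (NM_133246), a marker of committed granulocyte and monocyte progenitors, was higher on both transplanted arrays. It read 2725 units in wild-type native, 2913 in Sf3b1+/- native, 5320.3 in wild-type transplanted and 6245 in Sf3b1+/- transplanted cells. On the scaled log2 axis these were 0.72, 0.59, 1.54 and 1.22, the single member with its highest scaled value in wild-type transplanted cells.

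Lyz2 (NM_017372), which cleaves bacterial cell walls, had the widest range. It read 375 units in wild-type native, 387 in Sf3b1+/- native, 734 in wild-type transplanted and 1948 in Sf3b1+/- transplanted cells. Scaled log2 values were -2.14, -2.33, -1.31 and -0.46, a range of 1.86, with gaps of 0.82 and 0.85 above the native pair. Its neighbour and close paralog Lyz1 stood at 1.04, 0.70, 1.43 and 1.44 in the same order, and a probe of either gene may read the other's RNA.

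Ctsc (NM_009982), the activating protease, followed neither genotype nor setting. It read 685 units in wild-type native, 625 in Sf3b1+/- native, 606 in wild-type transplanted and 1155 in Sf3b1+/- transplanted cells. Scaled log2 values were -1.27, -1.63, -1.59 and -1.22, so wild-type native and Sf3b1+/- transplanted cells were level at the top and the others 0.32 or more below.

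**Figure D1:**
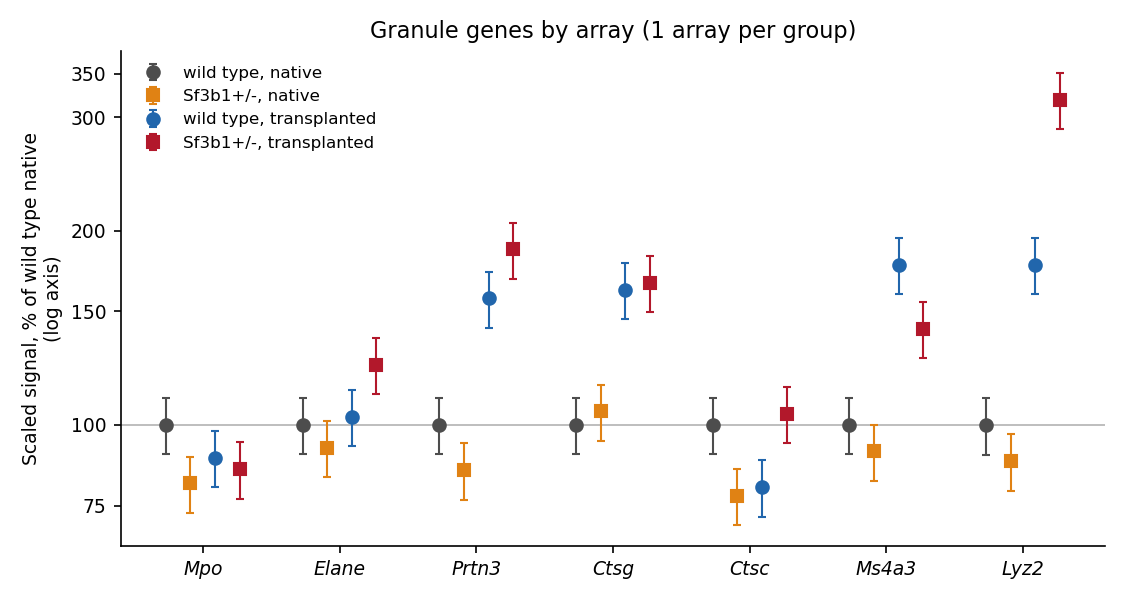
Scaled signal of each gene as a percentage of wild-type native cells (log axis), 1 point per array, with bars for the scanner software's error of about 10%. Prtn3, Ctsg, Ms4a3 and Lyz2 have both transplanted points above both native ones (Lyz2 at 177% and 319%), whereas Mpo stays between 81.2% and 100%.

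The first question is whether a missing Sf3b1 copy alters this program in native LSK cells. No member was at least 1.5-fold higher or lower (0 of 7 each way), where 3.25% and 4.70% of all compared genes were. Differences, Sf3b1+/- minus wild type, ran from -0.36 for Ctsc to 0.07 for Ctsg with a median of -0.19, against 0.00 for all genes, and 6 of 7 were below 0. Only 3 of the 7, Ctsc (-0.36), Mpo (-0.30) and Prtn3 (-0.23), were larger than the error of a difference. With spike-in scaling Elane (0.11), Ms4a3 (0.09) and Lyz2 (0.04) were above 0.

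In transplanted LSK cells 1 of 7 members was at least 1.5-fold higher in Sf3b1+/- cells and 0 were lower, where 7.80% and 6.42% of all compared genes were. That member was Lyz2, 1.80-fold higher (0.85). Ctsc was 0.37, Elane 0.26 and Prtn3 0.25 higher, Ctsg 0.03 higher, and Mpo 0.06 and Ms4a3 0.33 on the log2 scale on the lower side (-0.06 and -0.33). With spike-in scaling Mpo stood at 0.55 and Ms4a3 at 0.28, and with quantile normalization Mpo at 0.33. Spike-in scaling put 5 of 7 members 1.5-fold apart, where 53.7% of all genes were. The median of the members was 0.25, against 0.01 for all genes.

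A fit of genotype over both settings called no member and no gene (limma, 0% of 13031 genes at adjusted p under 0.05, although 13.6% had an unadjusted p under 0.05, with 0 of 7 members among them). The adjusted p of the members ran from 0.438 for Ms4a3 (-0.23 ± 0.13, SE) to 0.993 for Ctsc (0.00 ± 0.22). Lyz2 stood at 0.33 ± 0.29 (limma, adjusted p 0.567). This design has 1 residual degree of freedom per gene, so such p-values do not show that the genotypes are alike.

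**Figure D2:**
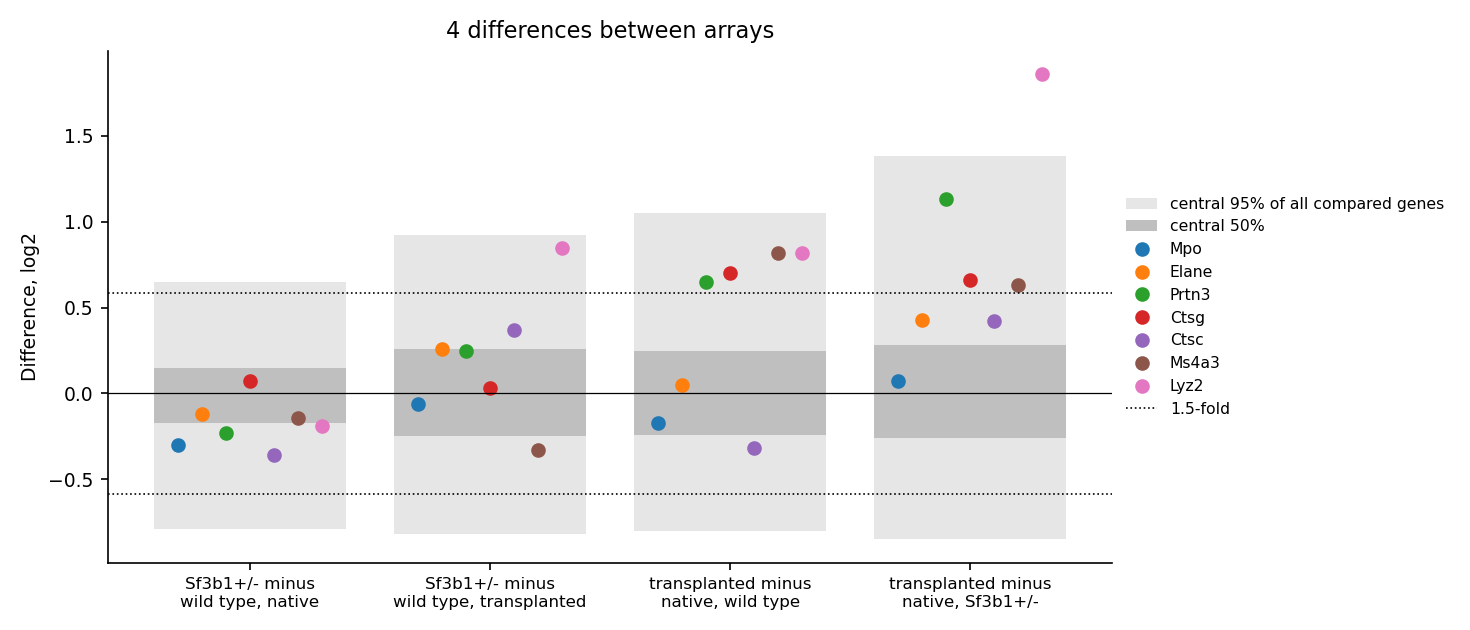
Difference between 2 arrays on the log2 scale for each gene in the 4 comparisons, over bands for the central 50% and 95% of all 13031 compared genes, with dotted lines at 1.5-fold. No gene passes 1.5-fold by genotype in native cells, 1 does in transplanted cells, and 4 do by setting in each genotype.

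The second question is how LSK cells regenerated in a host differ from native ones. In wild-type cells 4 of 7 members were at least 1.5-fold higher after transplantation and 0 lower, where 7.94% and 5.74% of all compared genes were. Ms4a3 and Lyz2 were each 1.77-fold, Ctsg 1.62-fold and Prtn3 1.57-fold higher. Mpo (-0.17), Elane (0.05) and Ctsc (-0.32) were not; with spike-in scaling these were 0.27, 0.49 and 0.12. The members' median was 0.65, against 0.00 for all genes. With quantile normalization 2 of the 4 stayed past 1.5-fold.

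In Sf3b1+/- cells 4 of 7 were again at least 1.5-fold higher and 0 lower, where 11.4% and 7.01% of all compared genes were. Lyz2 was 3.64-fold, Prtn3 2.20-fold, Ctsg 1.58-fold and Ms4a3 1.55-fold higher. These are the same 4 genes as in wild type, and 4.54% of compared genes passed this fold upward in both genotypes. Elane was 0.43 and Ctsc 0.42 higher, and Mpo 0.07. Spike-in scaling put 7 of 7 members 1.5-fold apart, where 74.4% of all genes were. Lyz2 was further up than all but 1.31% of compared genes, and Prtn3 than all but 3.88%.

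Fitted over both genotypes, the setting difference was 1.34 ± 0.29 (SE) for Lyz2, 0.89 ± 0.17 for Prtn3, 0.73 ± 0.13 for Ms4a3 and 0.68 ± 0.12 for Ctsg, each positive in both genotypes. None passed the test over all genes: limma gave adjusted p of 0.124 for Lyz2, 0.112 for Prtn3, and 0.107 for both Ms4a3 and Ctsg. The unadjusted limma p was 0.00897, 0.00630, 0.005 and 0.00503 in that order, and 25.7% of all genes had one under 0.05 while 0.568% passed after adjustment. Elane (0.24 ± 0.15, limma adjusted p 0.375), Ctsc (0.05 ± 0.22, 0.904) and Mpo (-0.05 ± 0.14, 0.840) did not pass either. Background correction by normexp brought 4 of 7 past the threshold, with limma adjusted p of 0.0128 (Prtn3), 0.0135 (Lyz2), 0.0142 (Ctsg) and 0.0143 (Ms4a3), where 11.0% of all genes passed. Spike-in scaling brought 5 of 7, Elane added (0.0184), where 42.4% of all genes passed. The other 6 alternatives brought no member past it. Lyz2 stood above Prtn3, and both above 0, under each alternative tried.

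**Figure D3:**
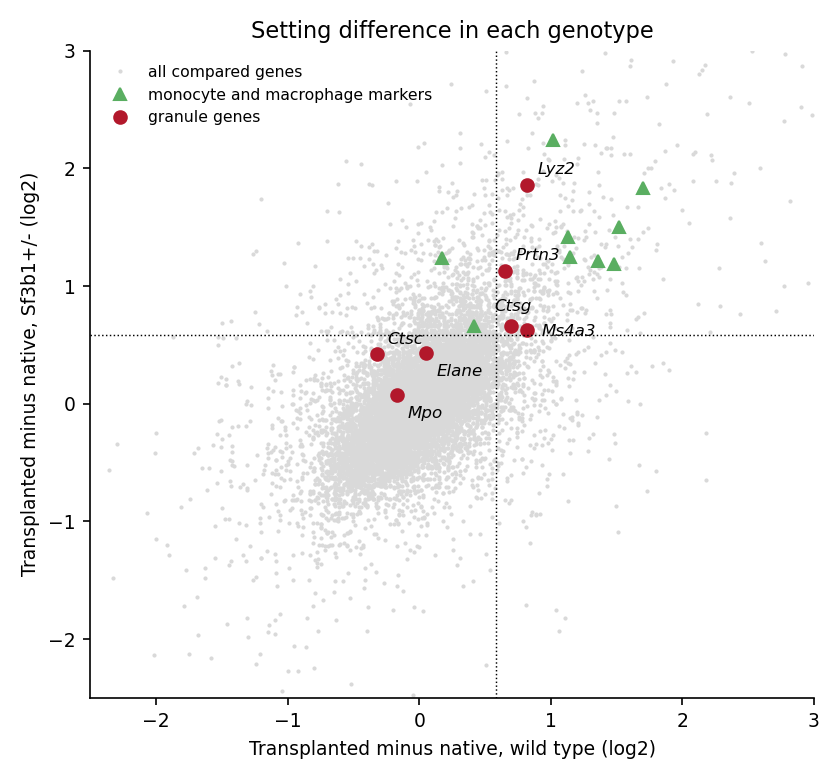
Transplanted minus native difference (log2) in wild type on the horizontal and in Sf3b1+/- on the vertical axis, for the granule genes, the monocyte and macrophage markers and all compared genes (85 genes lie outside the plotted range of -2.5 to 3). Prtn3, Ctsg, Ms4a3 and Lyz2 lie past the dotted 1.5-fold lines in both genotypes, and Mpo, Elane and Ctsc do not.

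**Figure D4:**
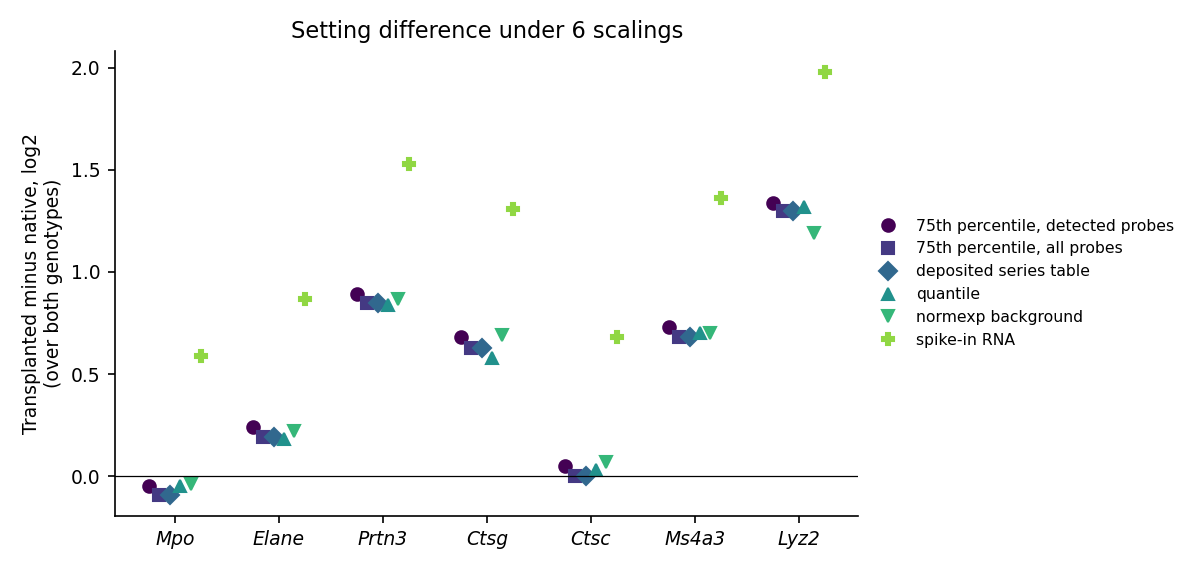
Setting difference over both genotypes (log2) for each gene under 6 scalings of the same arrays. Spike-in RNA shifts all genes up (Lyz2 to 1.98, Mpo to 0.59), and the other 5 leave Mpo near 0 and Lyz2 between 1.19 and 1.34.

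Markers of other cell types differed between the same arrays. Of 10 monocyte and macrophage markers 9 were measured. After transplantation 7 were at least 1.5-fold higher in wild-type and 9 in Sf3b1+/- cells, where 7.94% and 11.4% of all genes were. Of the 9, Adgre1 (1.24) was not well above background in Sf3b1+/- native cells. The summed scaled signal of the markers was 8.13 and 5.95 in native against 17.0 and 13.9 in transplanted cells (wild type and Sf3b1+/-). Ly86 (3.40-fold, limma adjusted p 0.0402) and Ms4a6c (2.84-fold, 0.0486) passed the test of setting. Of 7 mast cell and basophil markers 5 were compared, and 3 were at least 1.5-fold higher after transplantation in each genotype. Cpa3 (0.05 in wild-type and -0.09 in Sf3b1+/- cells) and Gata2 (-0.17 and 0.43) were not, and Ms4a2 and Mcpt1 were not above background on any array. The basophil protease gene Prss34 passed the test of setting too (limma adjusted p 0.0426). It was 3.63 higher on the log2 scale in Sf3b1+/- cells, and in wild-type native cells it was not well above background. These calls were not stable: Ly86 passed under 4 of 8 alternatives, Ms4a6c under 3 of 8 and Prss34 under 3 of the 7 that tested it, and none of the 3 passed with quantile normalization (limma adjusted p 0.0703, 0.0798 and 0.0809) or without a filter (0.170 each). Mature neutrophil markers summed to 11.1 and 11.0 in native and 15.0 and 9.20 in transplanted cells, with Mmp9 above background on none. The native sums rest mostly on Itgam (scaled log2 2.80 in wild-type and 2.81 in Sf3b1+/- cells). The part of these cell types in the members' differences was not tested. Of 8 granulocyte and monocyte progenitor markers, 0 in wild-type and 1 in Sf3b1+/- cells, the Fc receptor gene Fcgr3 (1.14), was at least 1.5-fold higher after transplantation. Their summed signal was 60.1 and 54.7 in native against 66.8 and 54.9 in transplanted cells. Csf3r (scaled log2 5.10 to 5.55) makes up most of that sum. LSK markers summed to 47.6 and 47.5 in native against 33.5 and 31.7 in transplanted cells. That sum rests mostly on Cd34 (scaled log2 5.12 and 5.07 in native, 4.58 and 4.37 in transplanted cells). Of 8 LSK markers compared, 1 was at least 1.5-fold higher in wild-type cells (Slamf1) and 3 lower (Flt3, Mecom and Hlf). In Sf3b1+/- cells 3 were higher (Ly6a, Slamf1 and Procr) and 3 lower (Cd34, Flt3 and Hlf). Of all genes 7.94% were higher and 5.74% lower in wild-type cells, and 11.4% and 7.01% in Sf3b1+/- cells. B cell markers summed to 8.47 and 3.27 against 2.51 and 2.24. By genotype all 6 megakaryocyte markers were at least 1.5-fold higher in Sf3b1+/- transplanted and 3 in native cells, where 7.80% and 3.25% of all genes were. Their part was not tested either.

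The members fell into like patterns by the root mean square difference between their 4 centred log2 values. Elane and Ctsc (0.135), Ctsg and Ms4a3 (0.149), Mpo and Ctsc (0.161) and Prtn3 and Ctsg (0.170) were the closest pairs, and Mpo and Lyz2 (0.767) the furthest apart. Elane and Prtn3 were 0.329 apart. Among 12168 other genes detected on all 4 arrays, the 5 nearest to Mpo were Lst1 (0.00242), Abhd12b (0.0191), Sp100 (0.0243), Rnf11 (0.0256) and Cd82 (0.0269), and 708 genes lay within 0.1, so over 4 arrays a flat pattern like that of Mpo is common. For Ctsc the nearest were Olfr524 (0.00571), Slc2a3 (0.0188), Atp2b1 (0.0298), S1pr2 (0.0324) and Trim45 (0.0350), with 106 genes within 0.1.

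Neighbouring genes were looked up after the members' values were seen. Elane and Prtn3 adjoin in the reference order, flanked by Plppr3 (setting differences of -0.06 in wild-type and 0.01 in Sf3b1+/- cells) and by Cfd, which was above background on 2 arrays. Next to Ctsg lies Mcpt8, a basophil protease gene, 1.70 and 1.46 higher after transplantation in wild-type and Sf3b1+/- cells, and Gzme, which was not above background on any array. Mpo has the peroxidase genes Lpo and, a little further, Epx close by. Lpo stood at -0.46 and -0.29 by genotype in native and transplanted cells, and the eosinophil peroxidase gene Epx at 1.16 and 1.77, against -0.30 and -0.06 for Mpo.

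Other genes of the primary granule and promyelocyte did not stand apart by genotype. Of 15 listed, 12 were compared and Bpi, Fcnb and Clec12a were not above background on any array. In native cells 1 was at least 1.5-fold higher in Sf3b1+/-, the lipoxygenase gene Alox5 (0.90), and 1 lower, Plac8 (-0.59). Of all compared genes 3.25% were higher and 4.70% lower by this fold. In transplanted cells Plac8 was lower again (-0.89), whereas Alox5 stood at -0.02. Srgn, the proteoglycan core that holds granule proteases, stood at -0.27 and -0.36, and Rab27a, a granule docking GTPase, at 0.18 and 0.40. By setting 4 of 12 were at least 1.5-fold higher in wild-type and 2 in Sf3b1+/- cells, where 7.94% and 11.4% of all compared genes were. In either genotype 0 were lower, where 5.74% and 7.01% of all compared genes were. Hp, the hemoglobin scavenger haptoglobin, stood at 0.85 and 1.52 and Igsf6 at 0.84 and 1.06 (both named after their values were seen). No gene of this list passed the limma test for genotype (1 of 12 at an unadjusted p under 0.05) or for setting (3 of 12). Of all compared genes 13.6% for genotype and 25.7% for setting had such an unadjusted p. Those shares apply to the lists below as well.

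Among 16 regulators and growth factor receptors, 0 passed the limma test for either term. At an unadjusted p under 0.05 were 2 of 16 for genotype and 7 of 16 for setting, where 13.6% and 25.7% of all genes were. By genotype Cebpa, the factor that starts granulocyte commitment, stood at 0.30 and 0.25 in native and transplanted cells, Csf3r, the G-CSF receptor, at -0.14 and -0.46, Csf1r, the M-CSF receptor, at -0.50 and -0.26, and Gfi1b at 0.71 and 0.96. By setting Irf8, which favours monocytes over neutrophils, was 1.17 and 1.28 higher in wild-type and Sf3b1+/- cells. Cebpe stood at 0.23 and -0.13, Gfi1 at -0.39 and -0.36, Flt3 at -0.61 and -1.20, and Cux1 at -0.67 and -0.57. The genes given by setting were named after their values were seen. Of the 16, 1 was at least 1.5-fold higher and 2 lower in wild-type cells, where 7.94% and 5.74% of all genes were. In Sf3b1+/- cells 2 were higher and 1 lower, where 11.4% and 7.01% of all genes were.

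Genes that fold Mpo, supply its heme or sort and restrain the proteases were measured as well. Of 13 chaperone and heme genes none was called for either term by limma. At an unadjusted p under 0.05 were 1 of 13 for genotype and 4 of 13 for setting, where 13.6% and 25.7% of all genes were. By genotype the chaperone Hspa5 stood at -0.67 and -0.31, Uros at -0.21 and -0.32, and Alad at 0.19 and 0.30. Of 14 lysosomal cathepsin and sorting genes 2 passed the test of setting, 1 higher and 1 lower after transplantation: Ctsh, an aminopeptidase-type cathepsin (3.17-fold, limma adjusted p 0.0402), and Igf2r, a mannose 6-phosphate receptor (-1.67 on the log2 scale, adjusted p 0.0402). Each passed under 4 of 8 alternatives, and neither did with quantile normalization (limma adjusted p 0.0703 for both) or without a filter (0.170 for both). None of the 14 was called for genotype (2 of 14 at an unadjusted limma p under 0.05), where Lyst stood at -0.33 and -0.54 and Vps33a at 0.17 and 0.42. Of 9 protease inhibitors 8 were compared and none was called for either term (limma; 2 of 8 and 3 of 8 at an unadjusted p under 0.05), with Cstb at -0.33 and -0.49 and Serpinb1a, an inhibitor of all 3 serine proteases, at -0.01 and -0.39 by genotype, against Serpinb6a at -0.34 and 0.45 and Serpine2 at 0.57 in native cells (in wild-type transplanted cells it was not well above background). By setting Slpi, an inhibitor of elastase and cathepsin G, stood at 0.84 and 0.88 in wild-type and Sf3b1+/- cells (named after its values were seen).

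Genes listed as late granule genes, which are switched on after the primary granules, had their highest summed scaled signal in wild-type transplanted cells. It was 8.57 there, against 4.33 in wild-type native, 4.22 in Sf3b1+/- native and 4.37 in Sf3b1+/- transplanted cells. The sum rests mostly on S100a9 (scaled log2 2.32 in wild-type transplanted cells), S100a8 (0.98) and Camp (0.02), with the others there at -2.21 or less. Among those compared, Ngp was highest in Sf3b1+/- transplanted (-4.12) and Retnlg in Sf3b1+/- native cells (-4.71). By setting, 5 of 9 compared were at least 1.5-fold higher and 0 lower in wild-type cells (median 0.73, where 7.94% of all genes were higher). In Sf3b1+/- cells 1 was higher and 1 lower (median -0.09), where 11.4% and 7.01% of all genes were. By genotype in transplanted cells 5 of 9 were at least 1.5-fold lower in Sf3b1+/- and 0 higher, where 6.42% of all genes were lower, with a median of -0.89; of the primary granule genes 0 of 7 were lower, with a median of 0.25. The wild-type transplanted array is part of both comparisons. Chil3 stood at -0.13 and -1.42 and S100a8 at -0.24 and -1.25 by genotype in native and transplanted cells, against 0.35 and -0.02 for Lcn2 and 1.15 and 0.45 for Retnlg. None passed the limma test for genotype (1 of 9 at an unadjusted p under 0.05, against 13.6% of all genes) or setting (2 of 9, against 25.7%). The difference between the lists was not tested.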

How the data were processed

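Labels put 1 array in each of 4 groups. Per the labels' protocols, 20 ng of column-purified RNA was mixed with spike-in RNA, amplified and labelled with Cy3. As the file headers state, arrays of Agilent design 028005 (probe positions on mm9) were read with Feature Extraction 10.7.1.1, protocol GE1_107_Sep09; per the file headers the deposited intensity is background-subtracted within an array, without scaling between arrays. Values of the deposited series table are a ratio: each column is proportional to that intensity (r of 1.00 on the log2 scale), with medians of 0.0745 to 0.0816 and a 75th percentile near 1.00. It is not centred, larger means more signal, and the sources used here do not name its tool.

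Outlier spots were left out, spots of a probe averaged on the log2 scale, and each array shifted by its 75th percentile over probes well above background on all arrays. RefSeq names of GRCm38.p6 named 27509 of 55681 probes; the brightest probe stood for a gene, and genes above background on at least 2 arrays were compared. Differences between 2 arrays were counted at 1.5-fold. Genotype and setting were fitted in 1 additive model, whose residual is the genotype-by-setting contrast. The fit used limma 3.58.1 in R 4.3.3 with moderated variances, two-sided, with Benjamini-Hochberg adjustment at 0.05 over all compared genes. Its SE and p-values rest on departure from additivity, moderated over genes. They do not measure spread between replicate arrays, of which there were none, and that departure may be technical. The fit was also run on simulated data with known genotype changes, independent noise and variances drawn from the fitted prior. That simulation held no genotype-by-setting contrast, so it does not show the error of the fit on these arrays. The number of arrays limits the precision.

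Members and lists were chosen with earlier results of these data known. Named are all members, the 5 genes most like Mpo and Ctsc, and per list the 2 highest and 2 lowest by genotype. Others are marked, are neighbours or cell type markers, or are genes that carry a count or sum. The normexp alternative (offset 50), planned on the mean spot signal, was run on the median spot signal instead.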

Additional observations from a re-analysis of the deposited data

Results flagged for a closer look

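Differences of opposite sign under the same contrast were listed, and none of them was tested, since 1 array per group leaves no error for the genotype-by-setting contrast. The genotype difference was below 0 in native and above 0 in transplanted cells for Lyz2 (-0.19 and 0.85, 1.04 apart), Ctsc (-0.36 and 0.37, 0.74 apart), Prtn3 (-0.23 and 0.25, 0.48 apart) and Elane (-0.12 and 0.26, 0.38 apart). The error of such a contrast from the scanner software's spot errors is 0.29. For Mpo the setting difference was -0.17 in wild-type and 0.07 in Sf3b1+/- cells, 0.24 apart, within that error.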

How the results depend on the processing

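Alternatives were the percentile over all probes, quantile normalization, spike-in scaling, normexp, both filters, the mean of all probes and the authors' series table. Counts of members 1.5-fold apart or called differed from those reported by over 1.5 times in 5 cases. Quantile normalization gave 2 in place of 4 in wild-type transplanted against native cells, where 13.9% of all genes were 1.5-fold apart and Ctsg (0.52) and Prtn3 (0.57) fell short. Spike-in scaling gave 5 in place of 1 by genotype in transplanted cells (53.7% of all genes), 7 in place of 4 in Sf3b1+/- transplanted against native cells (74.4%) and 5 in place of 0 called for setting (42.4%). Normexp gave 4 in place of 0 called for setting (11.0%). No member 1.5-fold apart changed sign under any alternative. The limma adjusted p for setting ranged over the alternatives from 1.0e-08 to 0.247 for Lyz2, 2.0e-05 to 0.228 for Prtn3, 3.5e-04 to 0.221 for Ctsg and 1.9e-04 to 0.221 for Ms4a3. The cause was not tested. No paired analysis was possible because each group holds 1 array. Lyz2 and Ctsc, at 375 to 1948 and 606 to 1155 units against a local background of 38.0 to 45.0, are the members nearest to background.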
